A study of Mus musculus with 23 samples.

Results

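This account covers 10 genes of extracellular proteolysis in the mouse colon: the matrix metalloproteinase genes Mmp2, Mmp3, Mmp7, Mmp9, Mmp10, Mmp12, Mmp13 and Mmp14, the inhibitor gene Timp1 and the disintegrin metalloproteinase gene Adam8. They were chosen by name, with earlier results of these data known, and make up 10 of the 18194 genes measured. Shares over all genes given below therefore describe these genes and do not test them as a set. All 14 of their probe sets were examined among the 45101 on each array: 2 each for Mmp2 and Mmp9, 3 for Mmp14 and 1 for each of the others. Each gene was represented by the brightest, on average, of the probe sets that name that gene alone. No filter on low values was applied, so all 10 genes were tested in every comparison.

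The study measured colon RNA of Balb/c mice on 23 oligonucleotide arrays in 4 groups. These were Fn14 knockout with TNBS (7 arrays), wild type with TNBS (6), Fn14 knockout without TNBS (5) and wild type without TNBS (5). Fn14, the product of Tnfrsf12a, is the receptor of the cytokine TWEAK, and rectal TNBS, a hapten, induces colitis in mice when given with ethanol. Treated mice received 0.2% TNBS over 6 weeks, in volumes that started at 1 and ended at 2 ul per g of body weight, and colons were taken 3 days after the last dose. The labels do not say whether mice without TNBS received ethanol, so a TNBS effect covers the whole injection. Age, sex, the construction of the knockout and whether the mice were littermates are not given in the sources used here. Nothing in the labels says that arrays of a group came from separate mice, and the p-values below therefore reflect the spread among arrays, which may be technical.

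Matrix metalloproteinases are zinc enzymes that are secreted or held at the cell surface as inactive precursors, become active when the propeptide is removed, and cut collagens, other matrix proteins and many signalling proteins. Tissue inhibitors of metalloproteinases bind the active enzymes. In the inflamed gut these proteases are made mostly by stromal cells, macrophages and other leukocytes, and they are known for their part in ulceration and repair.

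Values are the deposited log2 values, on which 1 unit is a doubling. The lowest value on any array was 2.17, and a gene near it has an understated fold change. Tnfrsf12a stood at 3.84 to 4.17 on TNBS-treated knockout arrays, against 6.77 to 8.25 on TNBS-treated wild-type arrays, and at 4.03 to 4.17 on untreated knockout arrays, against 5.86 to 7.16 on untreated wild-type arrays. The mean of 9 colon epithelium markers lay between 12.90 and 13.22 on all arrays, and within that range it differed by -0.14 in TNBS-treated against untreated knockout (exact permutation test, adjusted p = 0.0155, 3 of 9 markers called lower) and by 0.078 in untreated knockout against untreated wild type (adjusted p = 0.0414). The gap between the 3' and 5' Gapdh probe sets, a sign of RNA quality, was 0.943 ± 0.031 in TNBS-treated knockout and 1.06 ± 0.073 in TNBS-treated wild type (SD, n = 7 and 6, exact permutation test, two-sided, adjusted p = 0.0130 over 40 tests). With this gap as a covariate, 6 of the 10 genes were called between the treated genotypes, where Timp1 passed (-1.79) and Mmp2 (-0.64) and Mmp12 (-2.51) did not. The gap also differed in TNBS-treated knockout against untreated knockout, by -0.072 (exact permutation test, adjusted p = 0.0303).

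Of the 10 genes, 7 were lower in TNBS-treated knockout colon than in TNBS-treated wild-type colon. These were Mmp13, Mmp12, Mmp9, Mmp10, Mmp3, Adam8 and Mmp2, in order of size, with log2 differences between -2.56 and -0.52. Mmp7, Mmp14 and Timp1 did not pass. All 10 differences were negative, with a median of -1.43 against a median of 0 over all genes. A gene was called at an adjusted p under 0.05 from limma with Benjamini-Hochberg adjustment over all genes, and 6.72% of all genes were called lower in this comparison. In 3 of the 10 genes (Mmp9, Mmp10 and Mmp13) every knockout array lay below every wild-type array, against 2.68% of all genes.

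TNBS raised 9 of the 10 genes in wild-type colon, all but Mmp7, with a median difference of 2.13, and 10.2% of all genes were called higher. The groups did not overlap for 8 of the 10, against 6.99% of all genes. In knockout colon TNBS raised 4 of the 10 (Mmp9, Mmp10, Timp1 and Adam8), with a median of 0.57, where 4.08% of all genes were called higher. Those 4 genes were also the ones whose knockout groups did not overlap, against 1.97% of all genes. The median over all genes was 0 in both comparisons.

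Without TNBS no member passed between the genotypes in limma, while 4.83% of all genes were called in either direction. At an unadjusted p under 0.05 there were 2, Mmp10 and Mmp14. Such p-values were common in this comparison, with 3424 of all 18194 genes under 0.05, so these 2 do not set the members apart. The difference of the TNBS effects, which is the effect in knockout minus the effect in wild type, passed for Mmp13 and Mmp9, and 1.37% of all genes were called lower there. These comparisons share groups (each TNBS-treated group enters 2 of them and the difference of effects), so their values are not independent of each other.

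**Figure D1:**
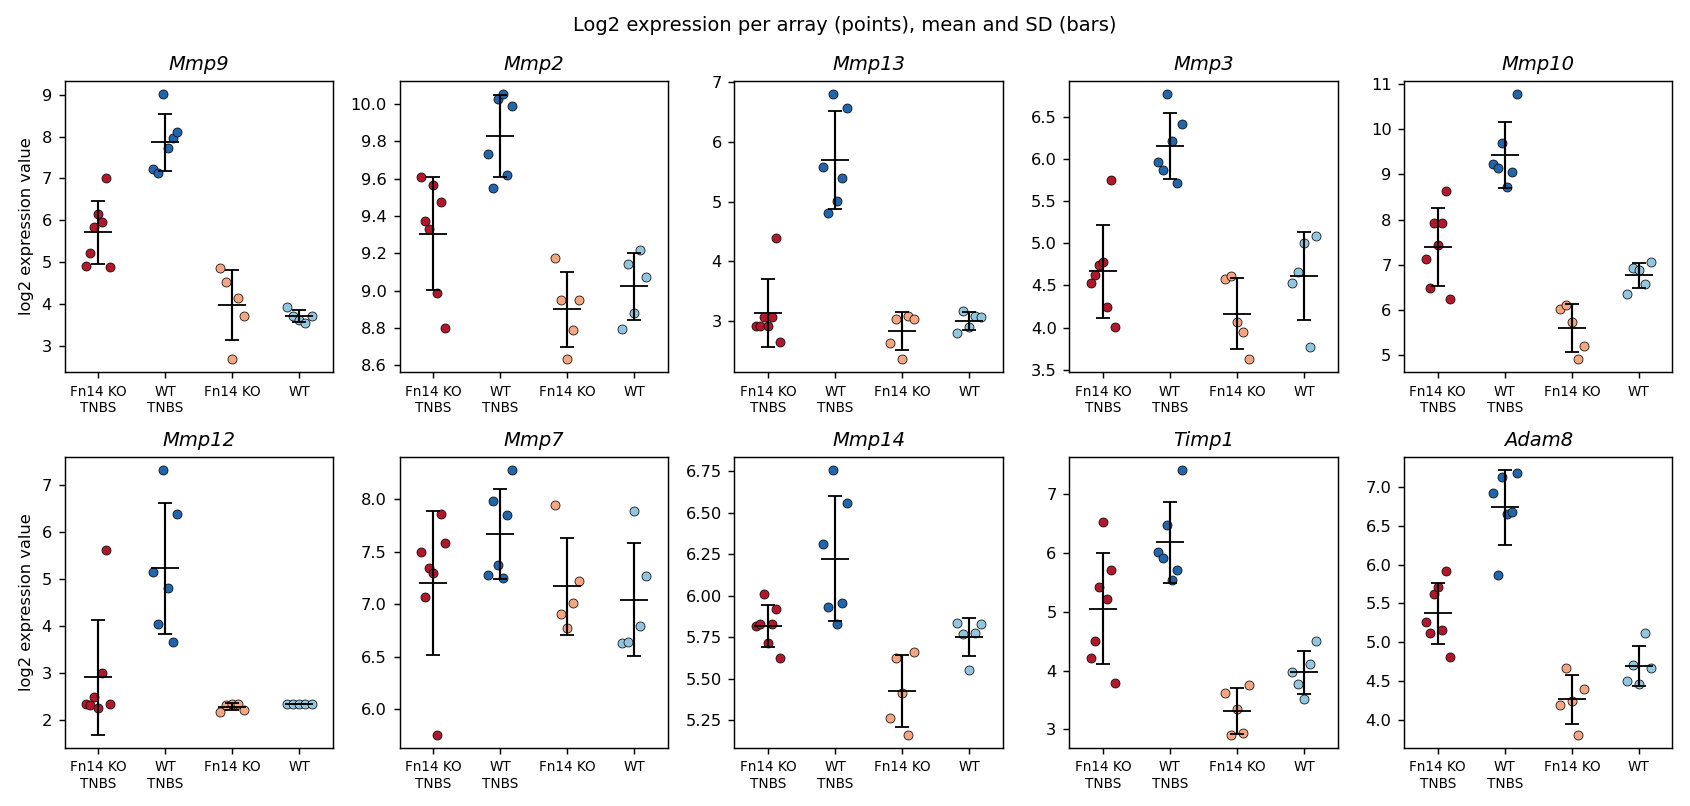
Log2 expression value (vertical axis, a separate scale for each gene) of the 10 genes on each of the 23 arrays (points), by group, with the group mean and SD (bars). TNBS-treated wild-type arrays had the highest mean in every gene, and for Mmp13 all 6 lay at 4.81 or above, against at most 4.39 on any other array.

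In 8 genes the order of group means was wild type with TNBS, knockout with TNBS, wild type without TNBS, knockout without TNBS. In Mmp7 and Mmp9 the untreated knockout mean stood above the untreated wild-type mean. Among the untreated groups the ranges overlapped in every gene but Mmp10. Between TNBS-treated knockout arrays and the untreated group next below them, the ranges were separate in Mmp9 only. The shares of all genes with the same order of means, or with separate ranges in either case, were not counted. How unusual the order and these separations are is therefore not known.

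The collagenase and elastase genes came first by size. Mmp13 encodes collagenase-3, which cleaves fibrillar collagen and in rodents is the main interstitial collagenase. Its log2 values on TNBS-treated knockout arrays were 2.65 at the lowest, 2.93 at the median and 4.39 at the highest, against 4.81, 5.48 and 6.80 on TNBS-treated wild-type arrays. Untreated knockout arrays stood at 2.64, 3.04, 2.37, 3.10 and 3.03, and untreated wild-type arrays at 2.81, 3.17, 2.91, 3.10 and 3.07. All TNBS-treated wild-type arrays were above all other arrays, and 6 of the 7 TNBS-treated knockout arrays fell inside the range of untreated ones.

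Mmp13 fell by 2.56 ± 0.30 (SE) in TNBS-treated knockout against TNBS-treated wild type, a 5.88-fold lower level (adjusted p = 3.73e-05), and ranked 8 of 18194 genes by size of decrease. TNBS raised it by 2.68 ± 0.33 in wild type (adjusted p = 1.66e-05). In knockout the difference was 0.30 ± 0.32 (95% interval -0.37 to 0.97, adjusted p = 0.697). The 2 TNBS effects differed by -2.38 ± 0.46 (adjusted p = 0.0116). These sizes depend on values under log2 5: with those set to 5, the difference between the treated genotypes was -0.72 (adjusted p = 0.0451), TNBS in wild type 0.72 and no longer called (adjusted p = 0.0502), and the difference of effects -0.72 and no longer called (adjusted p = 0.327).

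Mmp12 encodes macrophage elastase, a secreted enzyme that cuts elastin. On TNBS-treated knockout arrays its values were 2.25 at the lowest, 2.34 at the median and 5.62 at the highest, against 3.67, 4.97 and 7.33 on TNBS-treated wild-type arrays. Untreated knockout arrays stood at 2.17, 2.31, 2.34, 2.34 and 2.21, and all 5 untreated wild-type arrays at 2.34. In all, 14 arrays lay within 0.2 of the lowest value, none of them TNBS-treated wild type, so the fold changes are understated. Knockout replicate 6 alone reached the TNBS-treated wild-type range.

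Mmp12 fell by 2.32 ± 0.55 in TNBS-treated knockout against TNBS-treated wild type, 5.0-fold (adjusted p = 0.00950), and rose by 2.89 ± 0.59 with TNBS in wild type (adjusted p = 0.00216). Its TNBS difference in knockout was 0.63 ± 0.57 (adjusted p = 0.616). The difference of TNBS effects was -2.26 ± 0.83 and did not pass (adjusted p = 0.169), but without knockout TNBS replicate 6 it was -2.71 and passed (adjusted p = 0.0333). In a fit of the 2 treated groups alone the genotypes no longer passed (adjusted p = 0.0702), nor did they with values under log2 5 set to 5 (-0.55, adjusted p = 0.310). The rise with TNBS in wild type was lost with that floor too (0.64, adjusted p = 0.224), and with the neutrophil mean (2.16, adjusted p = 0.0893) or the squamous mean (2.23, adjusted p = 0.0979) as a covariate.

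Mmp10 (stromelysin-2) and Mmp3 (stromelysin-1) encode broad-range proteases that cut proteoglycans and glycoproteins and activate the precursors of other metalloproteinases. Mmp10 values were 6.24 at the lowest, 7.44 at the median and 8.64 at the highest on TNBS-treated knockout arrays, against 8.72, 9.19 and 10.78 on TNBS-treated wild-type arrays. Untreated knockout arrays stood at 6.02, 6.11, 5.74, 4.91 and 5.19, and untreated wild-type arrays at 6.35, 6.93, 6.89, 6.58 and 7.06. Knockout arrays were below all wild-type arrays both with and without TNBS.

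Mmp10 fell by 2.05 ± 0.37 in TNBS-treated knockout against TNBS-treated wild type (4.13-fold, adjusted p = 0.00137). Without TNBS the knockout minus wild-type difference was -1.17 ± 0.42 (95% interval -2.04 to -0.29) and did not pass (adjusted p = 0.115). TNBS raised Mmp10 in both genotypes, by 1.80 ± 0.39 in knockout (adjusted p = 0.00685) and by 2.68 ± 0.40 in wild type (adjusted p = 1.20e-04), and the difference of these effects was -0.88 ± 0.56 (adjusted p = 0.500). The interval of that difference ran from -2.04 to 0.28.

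Mmp3 had 4.0 at the lowest, 4.63 at the median and 5.75 at the highest on TNBS-treated knockout arrays, against 5.72, 6.09 and 6.77 on TNBS-treated wild-type arrays. On untreated knockout arrays it was 4.57, 4.62, 4.06, 3.95 and 3.63, and on untreated wild-type arrays 4.53, 4.66, 5.01, 3.77 and 5.09. The treated groups met at 1 array on each side, knockout replicate 6 and the lowest wild-type array. The gene fell by 1.49 ± 0.26 in TNBS-treated knockout against TNBS-treated wild type (2.81-fold, adjusted p = 0.00126). TNBS raised it by 1.55 ± 0.29 in wild type (adjusted p = 9.54e-04), and in knockout the difference was 0.50 ± 0.28 (adjusted p = 0.314). The difference of effects was -1.05 ± 0.40 and did not pass (adjusted p = 0.188), but it did with values under log2 5 set to 5 (-1.03, adjusted p = 0.0158).

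Gelatinases cut denatured collagen and the type IV collagen of basement membranes. Mmp9, gelatinase B, is stored by neutrophils and made by activated macrophages. Its values were 4.88 at the lowest, 5.84 at the median and 7.0 at the highest on TNBS-treated knockout arrays, against 7.12, 7.85 and 9.01 on TNBS-treated wild-type arrays. Untreated knockout arrays stood at 4.85, 4.52, 2.69, 4.14 and 3.72, and untreated wild-type arrays at 3.93, 3.72, 3.63, 3.54 and 3.72. The 2 treated groups were separate from each other and from their untreated groups.

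TNBS raised Mmp9 in wild-type colon by 4.15 ± 0.41, 17.8-fold (adjusted p = 1.03e-06), rank 22 of 18194 genes by size of increase. In knockout colon it rose by 1.72 ± 0.39, 3.30-fold (adjusted p = 0.00995), a call lost in a fit of those 2 groups alone (adjusted p = 0.0597), with the Gapdh gap as a covariate (1.45, adjusted p = 0.0713) and with values under log2 5 set to 5 (0.74, adjusted p = 0.187). Mmp9 was lower by 2.15 ± 0.37 on the log2 scale, 4.45-fold, in TNBS-treated knockout than in TNBS-treated wild type (adjusted p = 0.00104). The difference of effects, -2.43 ± 0.56 (adjusted p = 0.0291), lost its call without untreated wild-type replicate 4 (-2.39) or without untreated knockout replicate 1 (-2.21), 2 (-2.30) or 4 (-2.39), with adjusted p between 0.0501 and 0.0613. The other Mmp9 probe set, tested among all probe sets, gave -2.69 ± 0.37 between the treated genotypes (adjusted p = 2.01e-04) and -2.69 ± 0.57 for the difference of effects (adjusted p = 0.0213).

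Mmp2, gelatinase A, is made by fibroblasts and other stromal cells. It ranged over 8.80 to 9.61 on TNBS-treated knockout arrays (median 9.37), against 9.55 to 10.05 on TNBS-treated wild-type arrays (median 9.86). Untreated knockout arrays stood at 8.64 to 9.17 and untreated wild-type arrays at 8.80 to 9.22. The treated groups overlapped at their edge, and the difference between them, -0.52 ± 0.13 (adjusted p = 0.0141), was the smallest of the 7 that passed. Its second probe set gave -0.54 ± 0.17 (adjusted p = 0.0477). TNBS raised Mmp2 by 0.81 ± 0.14 in wild type (adjusted p = 6.46e-04), and in knockout the difference was 0.41 ± 0.14 (adjusted p = 0.0748), which passed without untreated knockout replicate 1 (0.47) or knockout TNBS replicate 7 (0.49). The genotypes no longer passed in a fit of the 2 treated groups alone (adjusted p = 0.0511).

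Mmp14 encodes the membrane-type 1 enzyme, which sits on the cell surface and, together with Timp2, activates the Mmp2 precursor. It ranged over 5.62 to 6.01 on TNBS-treated knockout arrays, against 5.83 to 6.76 on TNBS-treated wild-type arrays, and the groups overlapped. The difference was -0.40 ± 0.13 (adjusted p = 0.0514), and it passed without wild-type TNBS replicate 2 (-0.46), 4 (-0.48) or 5 (-0.46), knockout TNBS replicate 3 (-0.44) or untreated knockout replicate 4 (-0.40). TNBS raised the gene by 0.47 ± 0.14 in wild type (adjusted p = 0.0260), a call that was lost without untreated wild-type replicate 3 (0.42), wild-type TNBS replicate 3 (0.37) or wild-type TNBS replicate 6 (0.41). It was also lost in a fit of those 2 groups alone, with the mean of all its probe sets (0.34), with the replicate number as a block (0.43) and with the muscle, squamous or neutrophil mean as a covariate (0.45, 0.38 and 0.27), at adjusted p between 0.0613 and 0.430. In knockout the TNBS difference was 0.39 ± 0.14 (adjusted p = 0.0806, and 0.0410 without wild-type TNBS replicate 3). Its other 2 probe sets did not pass in any comparison.

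Mmp7, matrilysin, is an epithelial enzyme that in the mouse small intestine is made by Paneth cells, where it activates defensin precursors. Its values spread over 5.76 to 7.86 on TNBS-treated knockout arrays, 7.25 to 8.28 on TNBS-treated wild-type arrays, 6.77 to 7.94 on untreated knockout arrays and 6.63 to 7.88 on untreated wild-type arrays. All 4 groups overlapped. The difference between treated knockout and treated wild type was -0.47 ± 0.30 (95% interval -1.10 to 0.16, adjusted p = 0.397), and the TNBS difference in wild type was 0.63 ± 0.33 (adjusted p = 0.228). In knockout that difference was 0.03 ± 0.32 (adjusted p = 1).

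Timp1 encodes a secreted inhibitor of most matrix metalloproteinases. It had 3.79 at the lowest, 5.22 at the median and 6.52 at the highest on TNBS-treated knockout arrays, against 5.54, 5.96 and 7.41 on TNBS-treated wild-type arrays. Untreated knockout arrays stood at 3.62, 2.91, 3.35, 2.93 and 3.76, and untreated wild-type arrays at 3.97, 3.78, 3.52, 4.11 and 4.49. Treated groups overlapped with each other, while each was separate from its untreated group. Timp1 rose with TNBS in both genotypes, by 1.74 ± 0.39 in knockout (adjusted p = 0.00980) and by 2.20 ± 0.41 in wild type (adjusted p = 9.26e-04). The knockout call was lost in a fit of those 2 groups alone (adjusted p = 0.0530), with the Gapdh gap as a covariate (1.33, adjusted p = 0.0814) and with values under log2 5 set to 5 (0.41, adjusted p = 0.520). Its difference between the treated genotypes, -1.12 ± 0.37, did not pass (adjusted p = 0.0614), but without knockout TNBS replicate 4 it was -1.37 and passed (adjusted p = 0.0142).

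Adam8 encodes a membrane protease with a disintegrin domain, found mainly on myeloid leukocytes. It stood at 4.81 at the lowest, 5.26 at the median and 5.92 at the highest on TNBS-treated knockout arrays, against 5.87, 6.80 and 7.18 on TNBS-treated wild-type arrays. Untreated knockout arrays had 4.19, 4.67, 4.25, 3.81 and 4.40, and untreated wild-type arrays 4.50, 4.71, 4.46, 5.12 and 4.66. The treated groups overlapped by 1 array on each side. Adam8 fell by 1.37 ± 0.21 in TNBS-treated knockout against TNBS-treated wild type (2.58-fold, adjusted p = 3.56e-04). TNBS raised it by 1.11 ± 0.22 in knockout (adjusted p = 0.00427) and by 2.05 ± 0.23 in wild type (adjusted p = 5.39e-06). The difference of effects, -0.94 ± 0.32, did not pass (adjusted p = 0.128), but without wild-type TNBS replicate 2 it was -1.12 and passed (adjusted p = 0.0346). With values under log2 5 set to 5, the rise in knockout was 0.40 and no longer called (adjusted p = 0.238), and the difference of effects was -1.32 and passed (adjusted p = 0.0143).

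**Figure D2:**
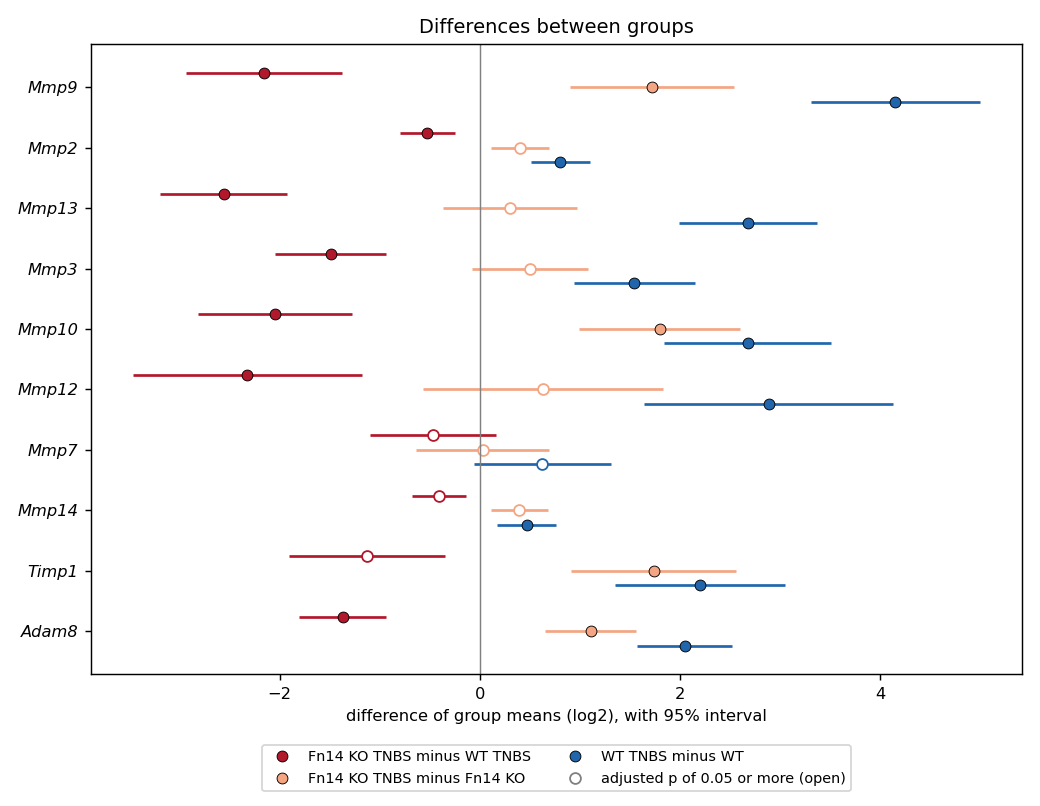
Differences of group means (horizontal axis, log2) with 95% intervals for the 10 genes in 3 comparisons, filled where the adjusted p was under 0.05. Mmp9 had the largest TNBS difference in wild type, 4.15, against 1.72 in knockout, and Mmp13 the largest difference between the treated genotypes, -2.56.

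Mmp13, Mmp12, Mmp3, Mmp10 and Mmp7 lie in 1 cluster of metalloproteinase genes on chromosome 9, where Mmp1a, Mmp1b, Mmp8, Mmp20 and Mmp27 also lie. Promoters of several metalloproteinases are known to bind AP-1, a transcription factor made of Fos and Jun proteins. RefSeq promoters of assembly GRCm38.p6 were searched over the 250 bases upstream of each gene start for the usual AP-1 letters TGAGTCA, which read TGACTCA from the opposite strand, and for TATAAA, which reads TTTATA. RefSeq entries matched 8 of the 10 genes, all but Mmp2 and Mmp9. The AP-1 letters were present before at least 1 annotated start in 5 of these 8, which were the 5 genes of the cluster. Counted by single promoter and not by gene, they were present in 4.46% of the 32851 promoters of the assembly. Windows of the 75 bases just before the start that holds the letters are shown because these cluster genes include 4 of the 5 with the largest decreases in the knockout and 1, Mmp7, that did not pass. Capitals mark the AP-1 letters and, where the window holds it, TATAAA, which do not overlap, and all 5 windows are on the plus strand:
Mmp13, chr9:7272439-7272513: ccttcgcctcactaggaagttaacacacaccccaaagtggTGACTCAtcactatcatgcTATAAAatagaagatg
Mmp12, chr9:7347299-7347373: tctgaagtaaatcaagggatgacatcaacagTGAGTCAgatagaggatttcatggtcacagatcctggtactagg
Mmp3, chr9:7445747-7445821: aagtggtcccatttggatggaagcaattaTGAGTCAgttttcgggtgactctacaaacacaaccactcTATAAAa
Mmp10, chr9:7502267-7502341: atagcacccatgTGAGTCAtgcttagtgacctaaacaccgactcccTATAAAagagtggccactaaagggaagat
Mmp7, chr9:7692015-7692089: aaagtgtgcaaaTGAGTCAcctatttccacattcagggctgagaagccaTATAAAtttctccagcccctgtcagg

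Counted from the annotated start, where -1 is the base before it, the first of the AP-1 letters stood at -35 in Mmp13, -44 in Mmp12, -46 in Mmp3 and -63 in both Mmp10 and Mmp7. Mmp12 and Mmp7 each have another annotated start whose 250 bases held no such letters. Of the 5 other cluster genes, 2 held them, Mmp1a and Mmp1b, and both stood at 2.17 in both TNBS-treated groups. TATAAA was found in 12.4% of all promoters. Adam8, Mmp14 and Timp1 held neither motif in the letters searched. A match describes the letters and was not tested as a binding site.

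Genes of the AP-1 subunits themselves were compared. Of 7, Fosb rose in TNBS-treated wild type against untreated wild type (1.22 ± 0.36, adjusted p = 0.0233), Jund fell (-0.20 ± 0.05, adjusted p = 0.0125) and 5 did not pass. None of the 7 passed between the treated genotypes in limma, with a median difference of -0.06. The TNBS effects on Jund differed by 0.29 ± 0.07 (adjusted p = 0.0390).

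Arrays of a treated group differed in many of the 10 genes together. Knockout TNBS replicate 6 was the highest of its group in 7 of the 10 genes and among the top 2 in 9. Knockout TNBS replicate 7 was the lowest in 8. In wild type, TNBS replicates 3 and 6 were each among the top 2 in 9 of the 10 genes. Without knockout TNBS replicate 6 the same 7 genes were called between the treated genotypes, with Mmp13 at -2.77 and Mmp12 at -2.77, and the knockout maximum of Mmp12 was 3.00 and that of Mmp13 was 3.07.

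**Figure D3:**
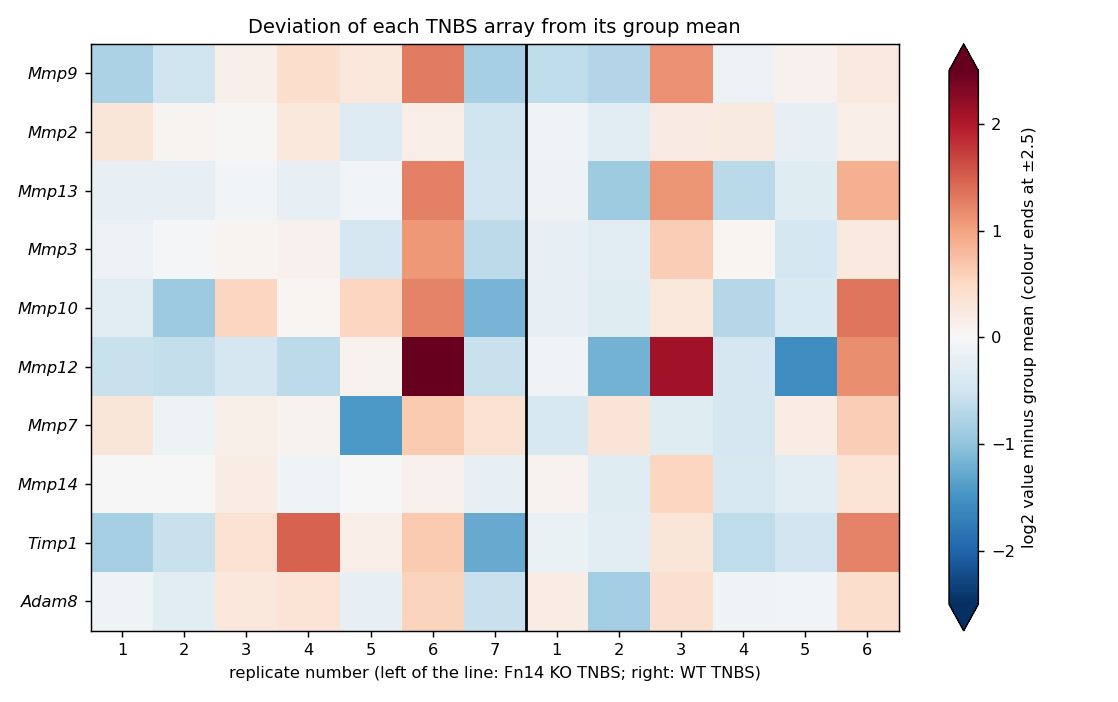
Deviation of each TNBS-treated array from its group mean (colour, log2 units, ending at 2.5 either way) for the 10 genes (rows), with the 7 knockout arrays left of the line and the 6 wild-type arrays right of it. Knockout replicate 6 was the highest of its group in 7 genes, and wild-type replicates 3 and 6 were among the top 2 of theirs in 9 genes each.

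With group means removed, the 45 pairs of genes were correlated over the 13 TNBS-treated arrays by permutation within groups, and 25 pairs passed at an adjusted p under 0.05 over the 45. The share of pairs passing among all genes was not counted, so how unusual this number is remains unknown. Mmp12 and Mmp13 had the highest Pearson r, 0.926 (adjusted p = 0.0140), with Spearman's rho at 0.804 (adjusted p = 0.0198). Left without the 2 arrays farthest from the median of Mmp12, their r was 0.793. The collagenase gene Mmp13 and the membrane-type gene Mmp14 had r = 0.823 (adjusted p = 0.0140) and rho = 0.935 (adjusted p = 0.00225), and r = 0.874 without the 2 arrays farthest in Mmp13. Stromelysin-2 and the inhibitor moved alike too: Mmp10 and Timp1 had r = 0.795 (adjusted p = 0.0144), rho = 0.841 (adjusted p = 0.0191) and r = 0.720 without the 2 farthest in Mmp10. The relation of Mmp9 with Mmp12 rested on such arrays, since its r of 0.756 dropped to 0.279 without them. Without the 2 arrays farthest in Mmp3, its r dropped from 0.843 to 0.464 with Mmp12, from 0.808 to 0.475 with Mmp13 and from 0.792 to 0.448 with Mmp9. With Adam8 the r of Mmp3 was 0.747, and 0.687 without those arrays. Mmp9 with Mmp12 and Mmp3 with Mmp12 did not pass by rho (permutation, adjusted p = 0.0970 and 0.0871), while Mmp3 with Timp1 passed by rho (0.0401) but not by r (0.0865). Mmp7 stood apart, with r between -0.0070 and 0.295 to the other 9 genes, and none of its pairs passed (adjusted p from 0.415 up). Unadjusted, none of its pairs was under 0.05 either.

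Whole colon was measured, so fewer cells of a type and less RNA per cell cannot be told apart. Marker lists of cell types moved with these genes in part. The mean of 11 macrophage markers was 8.35 ± 0.39 in TNBS-treated knockout and 9.19 ± 0.23 in TNBS-treated wild type (SD, n = 7 and 6, exact permutation test, two-sided, adjusted p = 0.0108 over 40 tests). It spanned 7.83 to 8.88 in knockout and 8.83 to 9.54 in wild type, so the groups met at 1 array each. Of the 11 markers 9 were called lower, among them Mrc1, the mannose receptor (-1.08 ± 0.18, adjusted p = 7.40e-04), and Csf1r, the receptor for macrophage growth factors (-0.88 ± 0.16, adjusted p = 0.00177). The complement gene C1qa and the lysosomal marker Cd68 were at -0.96 ± 0.20 and -1.22 ± 0.27 (adjusted p = 0.00368 and 0.00659). TNBS raised 8 of the 11 in knockout and 9 of the 11 in wild type. The list's mean was 0.82 higher with TNBS in knockout (adjusted p = 0.0198) and 1.05 higher in wild type (adjusted p = 0.0108). Without TNBS it was 7.53 ± 0.37 in knockout and 8.14 ± 0.15 in wild type (n = 5 each, exact permutation test, adjusted p = 0.0414).

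Adam8 and Mmp3 followed the macrophage mean most closely over the 13 treated arrays with group means removed. For Adam8, r was 0.857 and rho 0.868 (permutation, adjusted p = 0.00520 and 0.0202 over 40 pairs), and r was 0.791 without the 2 arrays farthest in the macrophage mean. For Mmp3, r was 0.816 and rho 0.830 (adjusted p = 0.00576 and 0.0202), and 0.650 without those arrays. Mmp9, Mmp2 and Mmp13 also passed by r (0.757, 0.752 and 0.681, adjusted p = 0.0258, 0.0258 and 0.00680) but not by rho (adjusted p = 0.0773, 0.0591 and 0.0831). With the macrophage mean as a covariate, a fit chosen after seeing the data, none of the 10 genes was called between the treated genotypes by limma, and 5 had an unadjusted p under 0.05. In that fit Mmp13 was at -1.76 ± 0.40 (adjusted p = 0.0554), Adam8 at -0.57 ± 0.20 (adjusted p = 0.235) and Mmp9 at -0.87 ± 0.41 (adjusted p = 0.396), while Mmp2 was at -0.02 ± 0.13. The same fit left 66 of all 18194 genes called, where 1902 were called without the covariate. Because the macrophage mean itself differed between the treated genotypes, this fit cannot tell it apart from genotype.

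**Figure D4:**
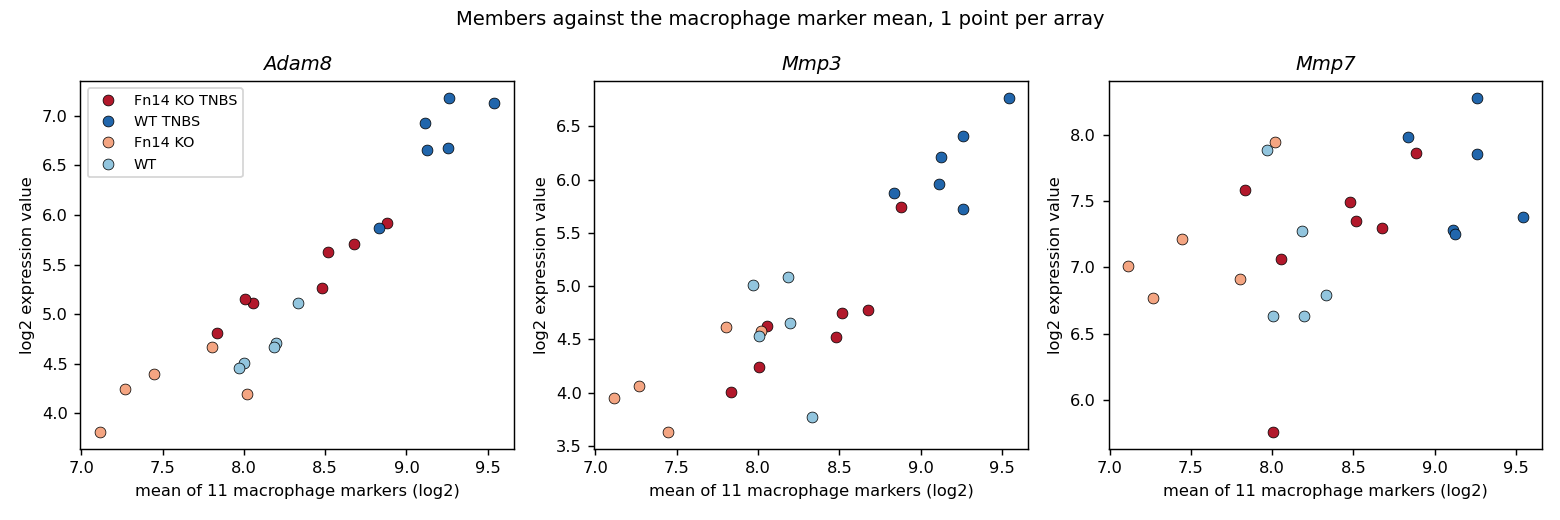
Log2 value of Adam8, Mmp3 and Mmp7 (vertical axes) against the mean of 11 macrophage markers (horizontal axis, log2), with 1 point per array and a colour per group. With group means removed r over the 13 treated arrays was 0.857 for Adam8, 0.816 for Mmp3 and 0.326 for Mmp7.

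Fibroblast markers moved the same way by less. Their mean over 9 genes was 10.02 ± 0.17 in TNBS-treated knockout and 10.31 ± 0.18 in TNBS-treated wild type (n = 7 and 6, exact permutation test, adjusted p = 0.0303), and 3 of the 9 were called lower: Pdgfra, a receptor for platelet-derived growth factor (-0.42 ± 0.07, adjusted p = 0.00103), Thy1 (-0.42 ± 0.10, adjusted p = 0.00928) and the collagen gene Col1a2 (-0.48 ± 0.14, adjusted p = 0.0351). Of the 10 genes Mmp2 had the highest r with that mean, 0.838 (rho = 0.808, permutation, adjusted p = 0.00520 and 0.0239), and 0.782 without the 2 farthest arrays. Mmp3 passed with it as well (r = 0.794, rho = 0.736, permutation, adjusted p = 0.00576 and 0.0484, r = 0.816 without the 2 farthest). Adam8 and Mmp13 passed by r (0.739 and 0.692, permutation, adjusted p = 0.0363 and 0.0258) but not by rho (adjusted p = 0.138 and 0.185). Mmp2 also moved with the squamous epithelium mean (r = 0.878, rho = 0.786, permutation, adjusted p = 0.00576 and 0.0399, r = 0.841 without the 2 farthest) and the neutrophil mean (r = 0.806, rho = 0.791, adjusted p = 0.00680 and 0.0399, r = 0.779 without them). By r Mmp2 was the only one of the 10 to pass with either. By rho Mmp3 passed too with the neutrophil mean (0.731, permutation, adjusted p = 0.0484). With the fibroblast mean as a covariate, also chosen after seeing the data, 4 genes stayed called between the treated genotypes (Mmp13, Mmp9, Mmp10 and Adam8) and Mmp2 was at -0.18 (adjusted p = 0.355). The fibroblast mean also differed between the treated genotypes, so the same limit holds for that fit.

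Neutrophil markers did not pass between the treated genotypes. Their mean over 9 genes was 3.72 ± 0.58 in TNBS-treated knockout and 3.80 ± 0.49 in TNBS-treated wild type (n = 7 and 6, exact permutation test, adjusted p = 0.807), and with TNBS it was 0.96 higher in knockout (adjusted p = 0.0303) and 0.99 higher in wild type (adjusted p = 0.0144). The calprotectin gene S100a9 rose with TNBS in knockout (4.14 ± 0.90, adjusted p = 0.00769) and in wild type (4.11 ± 0.94, adjusted p = 0.00466). The granule and receptor genes Elane, Ngp, Mpo, Camp and Cxcr2 stood between 2.17 and 2.26 on every array. Csf3r stood at 2.17 to 2.18 outside TNBS-treated wild type, where it averaged 2.53 and reached 3.93. The neutrophil mean therefore rested on S100a8, S100a9 and Ltf, with Csf3r adding to it in TNBS-treated wild type only. Whether that mean follows neutrophil number was not tested. On TNBS-treated knockout replicates 1 to 7 the neutrophil mean was 4.17, 4.10, 3.44, 4.19, 3.14, 4.16 and 2.82. The squamous mean there was 8.45, 8.43, 5.85, 8.73, 6.19, 8.42 and 4.59, so the 2 covariates rose and fell largely together. On wild-type TNBS replicates 1 to 6 they were less alike. The neutrophil mean was 3.69, 3.57, 3.90, 3.58, 3.33 and 4.73, and the squamous mean 5.12, 5.75, 7.67, 7.80, 6.25 and 7.98. With the neutrophil mean as a covariate 9 genes were called between the treated genotypes, all but Mmp7. The same covariate left 6 of the 9 calls for TNBS in wild type, without Mmp12, Mmp14 and Timp1, and none of the 4 for TNBS in knockout by limma (4 at an unadjusted p under 0.05).

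Other lists moved with treatment or genotype, and their part in the results was not tested beyond the covariates named. Mast cell markers, 7 of 7 higher with TNBS in both genotypes, averaged 7.55 ± 0.50 in TNBS-treated knockout and 8.96 ± 0.38 in TNBS-treated wild type (exact permutation test, adjusted p = 0.0108), with 5 of 7 called lower. Paneth cell markers averaged 12.68 ± 0.18 and 13.43 ± 0.09 in the same order of groups (adjusted p = 0.0108), with 1 of 3 called lower. These 3 (Lyz1, Itln1 and Pla2g2a) averaged 10.86 ± 0.30 in untreated knockout and 11.61 ± 0.38 in untreated wild type. Whether they mark Paneth cells in the colon was not tested. Eosinophil markers averaged 2.69 ± 0.15 in TNBS-treated knockout and 2.85 ± 0.15 in TNBS-treated wild type (adjusted p = 0.112), with 1 of 5 called lower. For the difference of TNBS effects 1 was also called lower. Ccr3 and Epx stood at 2.17 in every group and Prg2 averaged 2.17 to 2.18, while Siglecf averaged 4.36 and 5.37 in the treated groups. The list's mean was 0.37 higher with TNBS in wild type (exact permutation test, adjusted p = 0.0144) and 0.11 higher in knockout (adjusted p = 0.229). Squamous epithelium markers averaged 7.24 ± 1.66 in TNBS-treated knockout and 6.76 ± 1.21 in TNBS-treated wild type (exact permutation test, adjusted p = 0.641). They were 2.75 higher with TNBS in knockout (adjusted p = 0.0303) and 2.81 higher in wild type (adjusted p = 0.0144). Skeletal muscle markers averaged 7.25 ± 1.11 and 5.33 ± 1.61 with TNBS (adjusted p = 0.0503) and 7.04 ± 1.05 in untreated knockout against 4.11 ± 1.00 in untreated wild type (adjusted p = 0.0198). With the squamous mean as a covariate 9 genes were called between the treated genotypes, and with the muscle mean 7, but the 4 TNBS calls in knockout were lost with the squamous mean (adjusted p between 0.130 and 0.263, with 4 genes under an unadjusted p of 0.05).

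Other proteases and inhibitors were described beside them from lists chosen by family. Among 10 other matrix metalloproteinase genes measured, Mmp19 was lower in TNBS-treated knockout than in TNBS-treated wild type (8.26 against 8.91, -0.65 ± 0.16, adjusted p = 0.0127) and 9 did not pass, with a median of -0.05. Mmp23 rose with TNBS in knockout (0.73 ± 0.13, adjusted p = 0.00256) and in wild type (0.78 ± 0.14, adjusted p = 6.45e-04). Mmp8, the neutrophil collagenase, averaged 2.17 in both TNBS-treated groups.

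Among 5 other inhibitor genes Timp2, the partner of Mmp14 in Mmp2 activation, was lower in TNBS-treated knockout than in TNBS-treated wild type (-0.31 ± 0.09, adjusted p = 0.0371), rose with TNBS in wild type (0.33 ± 0.10, adjusted p = 0.0297), and the other 4 did not pass in either comparison. Of 9 other ADAM genes, Adam19 (-0.77 ± 0.14, adjusted p = 0.00194) and Adam12 (-1.15 ± 0.36, adjusted p = 0.0460) were lower between the treated genotypes and 7 did not pass. TNBS raised Adam12 in knockout (1.42 ± 0.38, adjusted p = 0.0245) and in wild type (2.08 ± 0.39, adjusted p = 0.00105). The medians of these lists between the treated genotypes were -0.14 and -0.12.

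ADAMTS genes encode secreted proteases that cut matrix proteoglycans and process collagen precursors. Of 15 measured, 3 were lower in TNBS-treated knockout than in TNBS-treated wild type: Adamts12 (-1.20 ± 0.23, adjusted p = 0.00231), Adamts5, an aggrecanase gene (-0.85 ± 0.25, adjusted p = 0.0323), and Adamts1 (-0.74 ± 0.24, adjusted p = 0.0496). The other 12 did not pass, and the median was -0.20. TNBS raised 5 of the 15 in wild type, led by Adamts12 (1.84 ± 0.25, adjusted p = 4.72e-05), and 10 did not pass.

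Plasmin, which can activate metalloproteinase precursors, is made from plasminogen by urokinase. Of 6 genes of this system, the urokinase gene Plau (3.13 against 3.95, -0.82 ± 0.22, adjusted p = 0.0188) and its receptor gene Plaur (4.30 against 5.01, -0.71 ± 0.20, adjusted p = 0.0249) were lower in TNBS-treated knockout than in TNBS-treated wild type, and 4 did not pass (median -0.11). Plaur rose with TNBS in wild type (0.67 ± 0.21, adjusted p = 0.0390). Of 8 genes whose products bind or activate metalloproteinases none passed between the treated genotypes (median 0.08), and 1, Spock2, fell with TNBS in wild type (-0.66 ± 0.17, adjusted p = 0.0123).

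For each of the 10 genes the 3 other genes with the most similar values over all 23 arrays were found by Pearson's r, a description that includes the differences between groups. Mmp13 was closest to Ccl24, the gene of an eosinophil chemokine (r = 0.987, and 0.929 with group means removed), then to the coagulation factor gene F10 (0.946) and Tmem26 (0.945). Mmp12 was also closest to Ccl24 (0.912, and 0.843 with group means removed), then to Psap and Cd300lb. Mmp10 had the complement gene C1qa (0.960 and 0.798 on the same 2 measures) and the Fc receptor genes Fcgr3 and Fcer1g, and Mmp3 had Tifab (0.940 and 0.764), Gpr65 and the chemokine receptor gene Ccr1. Mmp9 was closest to the lysosomal protease gene Ctsz (0.956 and 0.638), C3ar1 and Selp. Adam8 was closest to Alox5ap, of leukotriene synthesis (0.969 and 0.796), Cd84 and Serpinb6b. Mmp2 was closest to Igfbp7 (0.969 and 0.914), C1s1 and the macrophage marker Adgre1. Matrix genes stood beside Mmp14, with the basement membrane collagen gene Col4a1 first (0.889 and 0.733), then the fibronectin gene Fn1 and Elk3. Timp1 was closest to Sting1 (0.937 and 0.781), Marcksl1 and Serpina3n, and Mmp7 to Gosr2 (0.812 and 0.784), Timm10b and Sec61b.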

How the data were processed

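The deposited files hold the authors' log2 values of 45101 probe sets on 23 arrays. Both RMA and GCRMA appear in the submitters' processing notes, and which of them gave these values is not stated there. They ran from 2.17 to 15.98, with 27.9% at the lowest, and no arrays were identical. The number of arrays limits the precision.

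Per the platform annotation, 34958 probe sets name 1 gene, 932 several and 9211 none, and 34754 were matched by gene ID to assembly GRCm38.p6. Members and lists were chosen with earlier results of these data known. limma (lmFit and eBayes, a mean for each group, 19 residual and 0.475 prior degrees of freedom) tested 18194 genes with Benjamini-Hochberg adjustment. The difference of TNBS effects was a contrast of that model. Means of 9 marker lists and the Gapdh gap were compared by two-sided exact permutation tests (40, adjusted together), and correlations used 100000 permutations within groups. Named genes were all 10 members, up to 4 called genes with the smallest p per list (7 protease and regulator lists and the marker lists) and comparison, and the 3 genes most correlated with each member. The limma fit and the correlation permutations were tested on simulated data.

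Alternatives were trended and robust variances, only the 2 groups compared, weighting of arrays, dropping dim genes, other probe set rules, quantile normalization, median centring, a floor at log2 5, the replicate number as a block, 6 covariates (the macrophage and fibroblast means added after seeing the data) and leaving out each array. Arrays of the same number in different groups did not deviate together (31 pairs, r -0.46 to 0.43, 10 over 0.1), so numbers were not taken as pairs. Software was R 4.3.3, limma 3.58.1, the data.table package (1.17.8), Python 3.11.15, numpy 2.4.6, scipy 1.17.1, pandas 2.3.3 and matplotlib 3.10.9.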

Additional observations from a re-analysis of the deposited data

Results flagged for a closer look

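Among the 10 genes in 4 groups, 4 of 40 groups of arrays held 1 array far from the rest by Dixon's test at the 95% level, where chance flags about 1 group in 20. Knockout TNBS replicate 6 was the highest array of its group by a wide gap for Mmp12 (5.62, the next 3.00) and for Mmp13 (4.39, the next 3.07). Knockout TNBS replicate 5 was far below its group for Mmp7 (5.76), and untreated wild-type replicate 3 was far below its group for Mmp14 (5.56).

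The TNBS effects in knockout and wild type differed by a test of the difference itself, from limma, for Mmp9 (-2.43, adjusted p = 0.0291) and for Mmp13 (-2.38, adjusted p = 0.0116). Mmp9 was above its untreated range on 7 of 7 knockout and on 6 of 6 wild-type TNBS arrays, while Mmp13 was above its untreated range on 1 of 7 knockout arrays and on 6 of 6 wild-type arrays.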

How the results depend on the processing

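With TNBS-treated knockout against TNBS-treated wild type, 5 to 9 of the 10 genes were called under trended variances, the compared groups alone, array weights, other probe set rules, both normalizations, the floor and the replicate block, squamous, muscle, Gapdh and neutrophil settings. The macrophage mean left 0 (5 at an unadjusted p under 0.05) and the fibroblast mean 4. Among genes above the median level only 3 members were tested, and 2 were called there, as were 2 with TNBS in wild type, 2 with TNBS in knockout and 0 for the difference of effects (1 unadjusted). For TNBS in wild type, calls were 7 with the floor, 6 with the neutrophil, 4 with the squamous, 2 with the macrophage and 4 with the fibroblast mean. For TNBS in knockout, calls were 1 with the floor, 2 with the Gapdh gap, and 0 with the squamous (4 unadjusted), neutrophil (4), macrophage (0) or fibroblast mean (4). The difference of effects kept 1 call, Mmp13, with the muscle mean. Numbers did not pair the arrays; with the replicate block untreated knockout against untreated wild type had 1 call (Mmp10, -1.17, adjusted p = 0.0322), and the difference of effects had 1, since Mmp9 (-2.29) had an adjusted p of 0.0905. Leaving out 1 array gave 7 to 8 calls between the treated genotypes, 8 to 9 and 4 to 5 for TNBS in wild type and knockout, 0 between the untreated genotypes and 1 to 3 for the difference of effects. The causes of these changes were not tested.

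Of 34958 probe sets tested singly, 3345 differed between the treated genotypes and 4682 with TNBS in wild type. Over all genes, the treated genotypes differed in 1230 with the block, 738 with Gapdh, 66 with macrophage and 557 with fibroblast as covariates. TNBS in wild type changed 899, 1065, 125 and 826 with squamous, neutrophil, macrophage and fibroblast covariates. TNBS in knockout changed 856 in the compared groups alone, and 453, 813, 369, 89 and 607 with squamous, Gapdh, neutrophil, macrophage and fibroblast covariates. Untreated genotypes differed in 288 in the compared groups alone, and 86 and 336 with muscle and macrophage covariates. The difference of effects had 172 with the block. Leaving out 1 array gave, in the same order of comparisons, 1391 to 2106, 2250 to 3158, 1014 to 1835, 458 to 1021 and 213 to 443.

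Values that changed sign had not passed before or after. For TNBS in knockout these were Mmp7 (block -0.17, squamous -0.23, Gapdh -0.26, neutrophil -0.34, macrophage -0.42, fibroblast -0.16), Mmp12 (squamous -0.0099, neutrophil -0.072, macrophage -0.54, fibroblast -0.19), Mmp13 (squamous -0.072, neutrophil -0.16, macrophage -0.48, fibroblast -0.26), Mmp2 (macrophage -0.082) and Mmp3 (macrophage -0.27). For untreated knockout against untreated wild type with macrophage they were Mmp2 0.24, Mmp3 0.12, Mmp12 0.80, Mmp13 0.40, Timp1 0.045 and Adam8 0.15, and with fibroblast Mmp2 0.12, Mmp12 0.53 and Mmp13 0.23. Leaving out 1 array, the Mmp14 difference of effects ran from -0.16 to 0.028, Mmp7 between untreated genotypes from -0.067 to 0.34 and Mmp7 with TNBS in knockout from -0.079 to 0.27. Values near 2.17, chiefly of Mmp12, limit what a fold can show.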
